A study of Mus musculus with 6 samples.

Results

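A group of 9 genes that mark blood stem and progenitor cells was followed in mouse neutrophils grown in culture with and without miR-223. They are Kit, Cd34, Flt3, Meis1, Hoxa9, Gata2, Sox4, Mycn and Myb, measured by 15 of the 45101 probe sets of an Affymetrix expression array. The probe sets were taken by identifier and gene symbol, not by a cut on their measured values. Earlier results of these data were known when they were chosen. Messenger RNA was profiled on 6 arrays, 3 from wild-type and 3 from miR-223 null cells. In both genotypes, bone marrow progenitors spent 6 days with the granulocyte growth factor G-CSF and with SCF, or stem cell factor, the ligand of the Kit receptor, and then 42 hours without SCF before live cells were isolated by magnetic sorting (MACS). SILAC medium, made for isotope labelling of proteins, was used for both. The labels give no strain, age, sex or number of mice, and nothing in them shows that replicates were separate mice or cultures, so the spread behind each p-value may be technical.

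Granulocytes form from progenitors that stop dividing and shut down the genes of immature cells as granule and defence genes come on. The receptors Kit and Flt3 carry survival and growth signals into immature cells, the surface protein Cd34 marks many of them, and Gata2, Meis1, Hoxa9, Myb, Sox4 and Mycn are transcription factors that hold the immature state or drive its division. The microRNA miR-223 is abundant in the granulocyte lineage, and the design asks how mRNA levels differ in cells that lack it. Its mature arms are given because this is the RNA missing from one genotype, with the seed, bases 2 to 8, in capitals. Both lie on the plus strand of chromosome X (RefSeq, GRCm38.p6), the 5p arm at chrX:96242842-96242864 and the 3p arm at chrX:96242884-96242905.
mmu-miR-223-3p: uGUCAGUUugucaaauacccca
mmu-miR-223-5p: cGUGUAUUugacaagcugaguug

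All values are log2 intensities as deposited, so a difference of 1 log2 unit is a doubling, and differences are null minus wild type. Levels of different probe sets cannot be compared, because each probe set binds with its own strength. Probe sets whose mean over the 6 arrays reached the 40th percentile of the table, 4.08, were tested, and 13 of the 15 did, covering 8 of the 9 genes. The remaining 2, Mycn 1417155_AT and Meis1 1440431_AT, were dimmer. Array medians lay between 4.71 and 4.73. Spiked poly-A controls were highest in the replicate 1 arrays, averaging 8.92 in null 1 and 8.77 in wild-type 1, and 8.16 to 8.58 in the remaining 4. Wild-type 1 was nearer to null 3 (8.58) than null 3 was to wild-type 3 (8.16), so these controls alone do not set replicate 1 apart. Over the tested probe sets, deviations from the genotype mean were clearly shared between the replicate 1 arrays, which correlated at r = 0.70. How replicates 2 and 3 pair was not settled, since wild-type 2 correlated at 0.41 with null 3 and at 0.30 with null 2. Results are also given from a fit blocked on replicate number, and its pairs 2 and 3 rest on the numbering alone. Marker genes of neutrophils, mast cells, basophils, monocytes and other cells were not analysed here, because the table gives no gene names. The labelled cell type was therefore not checked against its markers, nor the null genotype against the level of miR-223, which was not analysed here. In mice Kit, Gata2 and Cd34 are also made by mast cells, and the part of such cells in the results was not tested. In a bulk sample, fewer cells of a type and less RNA per cell cannot be told apart.

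Both probe sets of Kit read lower and the probe set of Cd34 read higher in null cells, and these 3 held the largest differences of the 15. Kit stood at 56.5% and 61.1% of its wild-type signal by its 2 probe sets, and Cd34 at 175%. All 3 passed the test once arrays were paired by replicate number, and none passed in the unpaired fit of all 6 arrays. All 3 did pass unpaired when both replicate 1 arrays were left out. Unpaired fits without both replicate 2 or both replicate 3 arrays were not run. Of 3 Myb probe sets, 1450194_A_AT fell as well, by a much smaller amount, with pairing. For Flt3, Meis1, Hoxa9, Gata2, Sox4 and Mycn no probe set passed in either fit, with the dim ones read from fits without the filter.

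**Figure D1:**
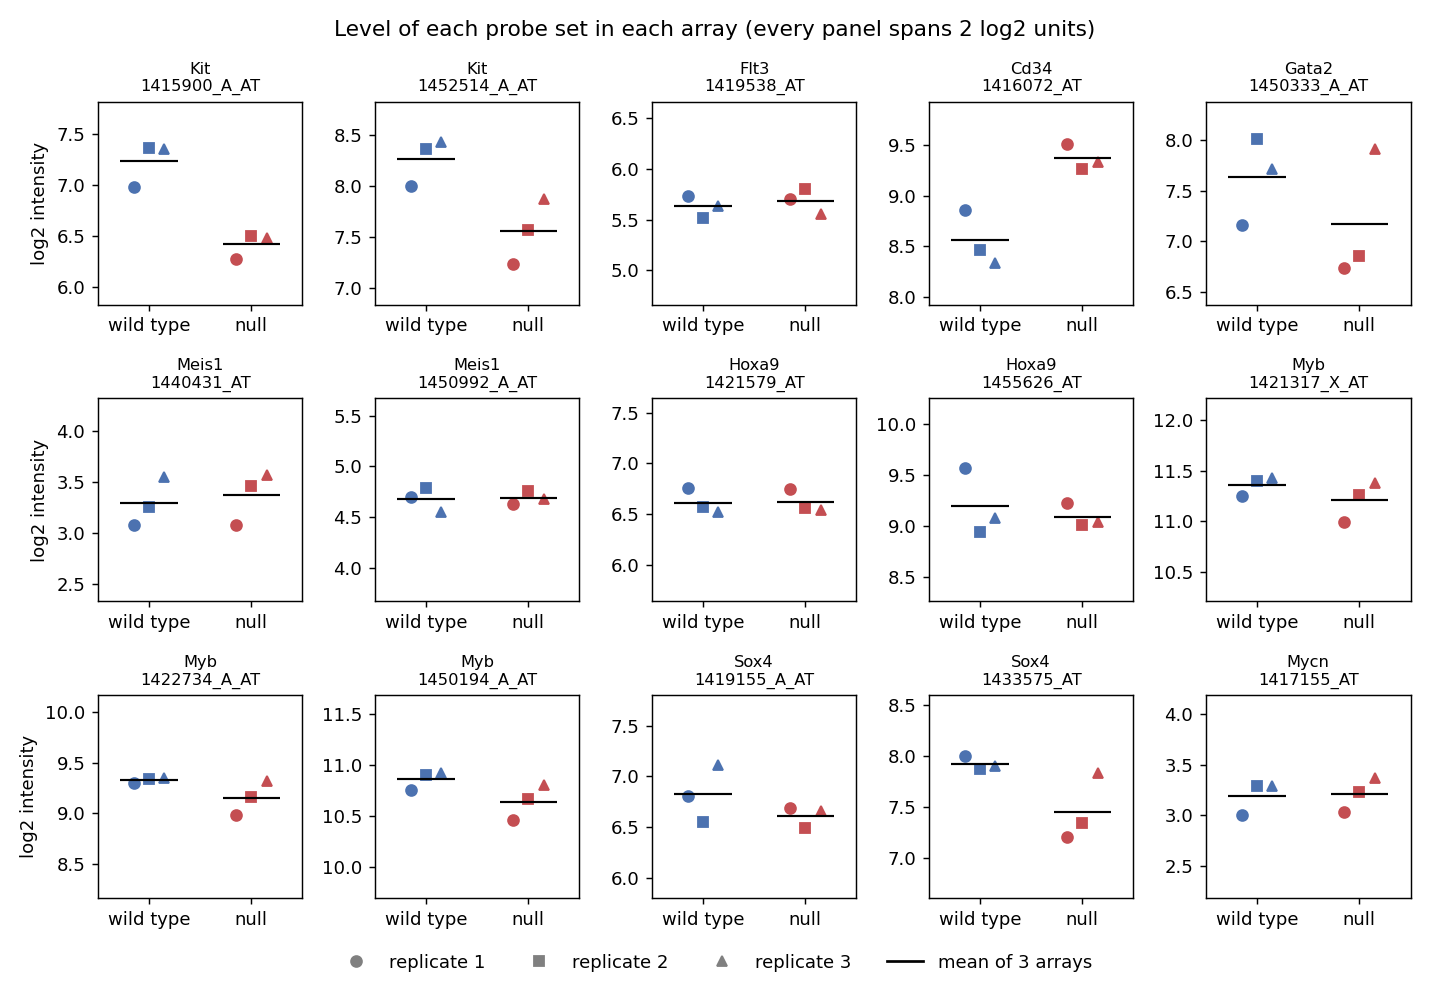
Log2 intensity of each of the 15 probe sets in each array, wild type in blue and null in red, with marker shape for the replicate number and a line at the mean of 3 arrays. Every panel spans 2 log2 units, and the genotypes are fully apart for both Kit probe sets, for Cd34 and, by 0.04 log2 units, for Sox4 1433575_AT.

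Treated as unpaired, 0 of the 13 tested probe sets passed a Benjamini-Hochberg adjusted p of 0.05 in limma, against 0.189% of all 27022 tested probe sets, and 4 of the 13 had an unadjusted p under 0.05, against 10.7% of all tested. With the replicate number as a block, 4 of 13 passed, 1 higher and 3 lower in null cells. The background in that fit was 10.0% of all tested probe sets, 4.96% higher and 5.05% lower. Without an intensity trend in the variance the blocked fit called 3 of 13, both Kit probe sets and Cd34, against 0.707% of all tested. Their limma adjusted p-values were then nearer the threshold, 0.0341 for Kit 1415900_A_AT, 0.0442 for Kit 1452514_A_AT and 0.0434 for Cd34. With both replicate 1 arrays left out and no block, the same 3 passed, against 3.97% of all. The genotypes did not overlap for 4 of the 15 probe sets, 3 lower and 1 higher, against 16.8% of tested probe sets. Within replicate pairs, 8 of the 15 differed one way in 3 of 3 pairs, 7 lower and 1 higher, where 46.6% of tested probe sets did so. The median difference over all 15 was -0.15 log2 units, beside -0.011 over all tested probe sets. By their means 9 of the 15 were lower and 6 higher in null cells, while 52.5% of tested probe sets were lower. Probe sets of one gene are not independent, yet each was counted, and the median of -0.15 is the value of Myb 1421317_X_AT. By gene, all probe sets of Kit, Gata2, Myb and Sox4 were lower. Those of Cd34, Flt3, Meis1 and Mycn were higher, the last 3 genes by 0.07 log2 units or less. The Hoxa9 probe sets lay at 0 and -0.10. Counts over the 15 include the 2 dim probe sets, which the shares of tested probe sets leave out.

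Kit encodes the receptor tyrosine kinase for SCF, the factor that had been withdrawn from the medium for the last 42 hours. Probe set 1415900_A_AT read 6.27, 6.50 and 6.48 in null arrays 1 to 3 and 6.98, 7.37 and 7.36 in wild-type arrays 1 to 3. Every null array was below every wild-type array, with a gap of 0.47 log2 units between the nearest, wider than the range among null arrays (0.24) or wild-type arrays (0.40). The means were 6.42 ± 0.13 (SD, n = 3) and 7.24 ± 0.23 (SD, n = 3), a difference of -0.82 log2 units. Unpaired, its SE was 0.14 and its limma adjusted p was 0.0957. With the block the SE was 0.09 and the limma adjusted p was 0.00322. Only 0.67% of all tested probe sets differed by more in either direction.

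The second Kit probe set, 1452514_A_AT, gave nearly the same difference. It read 7.23, 7.57 and 7.87 in null arrays 1 to 3 and 8.0, 8.37 and 8.43 in wild-type arrays 1 to 3. The groups did not overlap, but null 3 came within 0.13 log2 units of wild-type 1. The means were 7.56 ± 0.32 (SD, n = 3) and 8.27 ± 0.23 (SD, n = 3), and the difference was -0.71 log2 units (SE 0.19, limma adjusted p = 0.243 unpaired, SE 0.08 and limma adjusted p = 0.00354 with the block). Within pairs 1, 2 and 3 this probe set differed by -0.78, -0.80 and -0.56 log2 units, and 1415900_A_AT by -0.71, -0.87 and -0.89. Across the 6 arrays the levels of the pair of Kit probe sets correlated at r = 0.95, as a description of arrays that share genotype and replicate structure. Both share the suffix that the manufacturer gives to probe sets binding several transcripts of one gene, so they do not separate Kit isoforms.

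Cd34, a heavily glycosylated surface protein of stem and progenitor cells, moved opposite to Kit. Probe set 1416072_AT read 9.51, 9.26 and 9.33 in null arrays 1 to 3 and 8.86, 8.47 and 8.34 in wild-type arrays 1 to 3. The lowest null array was 0.40 log2 units above the highest wild-type array. The means were 9.37 ± 0.13 (SD, n = 3) and 8.56 ± 0.27 (SD, n = 3), a difference of 0.81 log2 units or 1.75-fold (SE 0.15, limma adjusted p = 0.119 unpaired, SE 0.08 and limma adjusted p = 0.00224 with the block). Pairs 1, 2 and 3 differed by 0.65, 0.79 and 0.99 log2 units. Only 0.707% of tested probe sets differed by more in either direction.

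Kit and Cd34 did not pass in the unpaired fit of all 6 arrays or with 1 array left out, and passed with a block or without both replicate 1 arrays, while their differences kept sign and similar size. Leaving out each array in turn, unpaired, gave differences of -0.95 to -0.75 for 1415900_A_AT, -0.87 to -0.55 for 1452514_A_AT and 0.70 to 0.96 for Cd34, with limma adjusted p-values from 0.0559 to 0.415, from 0.159 to 0.696 and from 0.0542 to 0.51. With the block and each replicate pair left out in turn, all 3 probe sets passed each time, with limma adjusted p-values of at most 0.0213, 0.0258 and 0.0119. So few arrays remain in these fits that limma took the variance largely from other probe sets. They therefore say little about the spread of each gene itself. Setting replicate 1 against replicates 2 and 3 as the block, a choice made after seeing the data that does not use the numbering of replicates 2 and 3, gave limma adjusted p-values of 0.00186, 0.00385 and 0.00107.

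**Figure D2:**
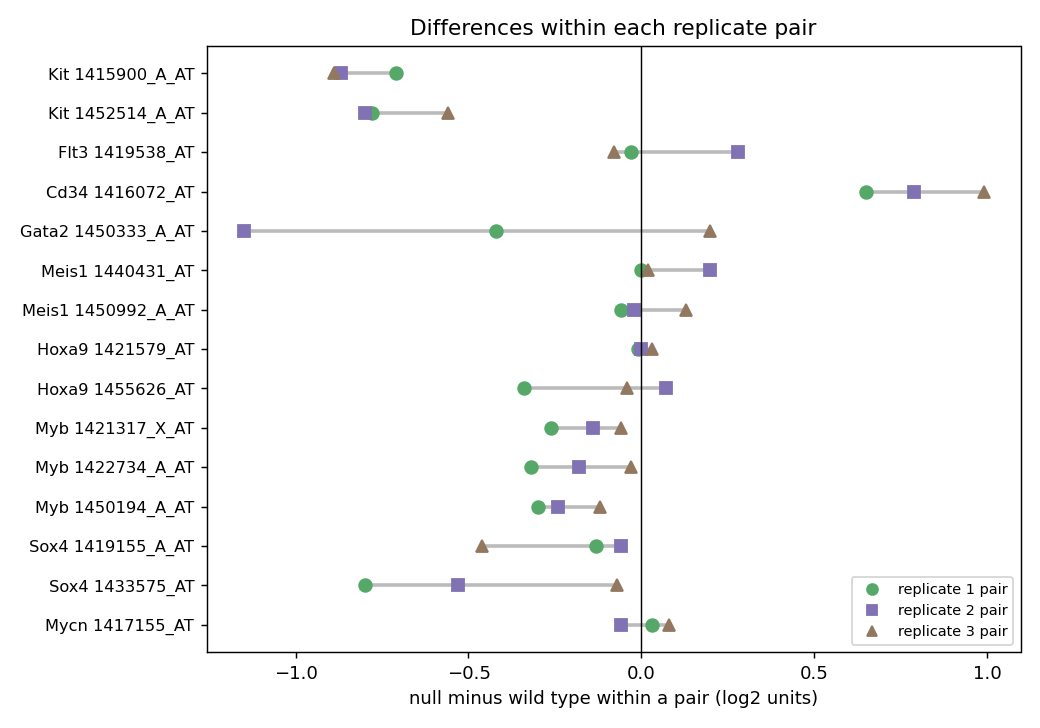
Null minus wild-type difference in log2 units within each replicate pair, 1 row per probe set, with a grey bar from the lowest to the highest pair. All 3 pairs lie between -0.89 and -0.56 for the 2 Kit probe sets and between 0.65 and 0.99 for Cd34, while the Gata2 pairs run from -1.15 to 0.20.

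Replicate 1 differed from replicates 2 and 3 in Kit and Cd34 in the same direction in both genotypes. Replicate 1 minus the mean of replicates 2 and 3 was -0.22 log2 units among null and -0.39 among wild-type arrays for Kit 1415900_A_AT, and -0.49 and -0.40 for 1452514_A_AT. Cd34 was higher in replicate 1, by 0.21 log2 units among null and 0.46 among wild-type arrays. Kit was thus lower and Cd34 higher in replicate 1 than in the other arrays of its genotype, the same directions as in null against wild-type arrays. Over the 15 probe sets, the replicate 1 array was the lowest of its genotype in both genotypes for 8 and the highest in both for 3. The 8 include the dim probe sets of Meis1 and Mycn, which were not tested. Among all tested probe sets these shares were 27.6% and 28.4%, so replicate 1 stood apart well beyond these genes. The spiked controls were also highest in the replicate 1 arrays, as given above, and their part in these shifts was not tested.

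The upstream sequences of Kit and Cd34 are given because these genes moved in opposite directions. They hold the 250 bases before the annotated start (RefSeq, GRCm38.p6), both on the plus strand, Kit at chr5:75574737-75574986 and Cd34 at chr1:194938571-194938820. Capitals mark matches, on either strand, to short motifs of 5 of the transcription factors studied here: GATAA for Gata2, TGACAG for Meis1, AACNG for Myb, AACAAAG for Sox4 and CACGTG for Mycn.
Kit: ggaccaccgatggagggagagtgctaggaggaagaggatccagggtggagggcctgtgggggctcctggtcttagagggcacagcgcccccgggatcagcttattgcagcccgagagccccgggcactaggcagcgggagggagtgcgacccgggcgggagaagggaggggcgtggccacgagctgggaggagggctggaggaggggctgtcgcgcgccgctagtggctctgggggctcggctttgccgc
Cd34: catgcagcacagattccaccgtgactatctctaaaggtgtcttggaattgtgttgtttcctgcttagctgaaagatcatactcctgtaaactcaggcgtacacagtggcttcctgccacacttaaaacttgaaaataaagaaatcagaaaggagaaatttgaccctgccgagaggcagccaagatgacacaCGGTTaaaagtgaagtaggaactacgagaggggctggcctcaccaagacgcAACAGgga
The Kit stretch held no match to any of the 5. The Cd34 stretch held 2 matches to the Myb motif, cggtt (on the reverse strand) from 59 to 55 and aacag from 8 to 4 bases before the start. This motif is short and was found in 74.2% of all 32851 upstream stretches of the same length. The stretches were 70.8% G or C for Kit and 46.4% for Cd34. Over the 11 annotated starts of the 9 genes, 6 held the Myb motif and 2, those of Hoxa9 and Sox4, held GATAA, which 22.6% of all stretches did. Kit has 2 of these starts, and the stretch of the other, chr5:75574741-75574990, overlaps the one shown almost fully. Nearly the same sequence without a match is thus counted at both. None of the 11 held the motifs for Meis1, Sox4 or Mycn, present in 15.9%, 5.03% and 6.02% of all stretches. A match is a description of the letters, and the arrays measured no binding.

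Flt3 encodes the other receptor of the group, which supports early multipotent, lymphoid and dendritic progenitors. Probe set 1419538_AT read 5.70, 5.80 and 5.55 in null arrays 1 to 3 and 5.73, 5.52 and 5.63 in wild-type arrays 1 to 3. The ranges overlapped, and the difference was 0.05 log2 units with a 95% confidence interval from -0.21 to 0.32 in either fit (limma adjusted p = 0.92 unpaired and 0.815 with the block). The interval excludes a difference as large as that of Kit or Cd34, though smaller ones of either sign lie within it.

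Myb, a transcription factor that keeps progenitors dividing and declines as granulocytes mature, was measured by 3 probe sets, which all read slightly lower in null cells. Probe set 1450194_A_AT read 10.46, 10.67 and 10.80 in null arrays 1 to 3 and 10.76, 10.90 and 10.92 in wild-type arrays 1 to 3. Null 3 lay above wild-type 1, so the groups overlapped, but each null array was below the wild-type array of its number. The difference was -0.22 log2 units, which left 85.9% of the wild-type signal (SE 0.10, limma adjusted p = 0.517 unpaired, SE 0.05 and limma adjusted p = 0.0341 with the block). The call was lost without the replicate 1 pair (limma adjusted p = 0.119), without the replicate 2 pair (0.197) and without the intensity trend (0.159).

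The other Myb probe sets gave differences of the same sign that did not pass in either fit of all 6 arrays. Probe set 1421317_X_AT read 10.99, 11.26 and 11.38 in null arrays 1 to 3 and 11.25, 11.40 and 11.43 in wild-type arrays 1 to 3, a difference of -0.15 log2 units (limma adjusted p = 0.697 unpaired and 0.0934 with the block). Without the replicate 3 pair its blocked difference was -0.20 and passed (limma adjusted p = 0.0406). Its suffix marks probes that may also bind transcripts of other genes, so its value is uncertain. Probe set 1422734_A_AT read 8.98, 9.16 and 9.32 in null and 9.30, 9.34 and 9.35 in wild-type arrays, a difference of -0.18 log2 units (limma adjusted p = 0.645 and 0.154). Pairs 1, 2 and 3 differed by -0.30, -0.24 and -0.12 for 1450194_A_AT, by -0.26, -0.14 and -0.06 for 1421317_X_AT and by -0.32, -0.18 and -0.03 for 1422734_A_AT. In each of the 3 probe sets the replicate 1 pair held the widest difference and the replicate 3 pair the narrowest. The levels of any 2 of them correlated over the 6 arrays at r = 0.95 to 0.97, again as a description.

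Gata2, a zinc-finger transcription factor of stem cells and of the mast cell lineage, varied more among arrays of one genotype than any other gene of the group. Probe set 1450333_A_AT read 6.74, 6.86 and 7.91 in null arrays 1 to 3 and 7.16, 8.01 and 7.71 in wild-type arrays 1 to 3. Null 3 was above 2 of the 3 wild-type arrays, while null 1 and null 2 were below all of them. The means were 7.17 ± 0.64 (SD, n = 3) and 7.63 ± 0.43 (SD, n = 3), and the difference of -0.45 log2 units had a 95% confidence interval from -1.24 to 0.33 unpaired (limma adjusted p = 0.711) and from -0.95 to 0.04 with the block (limma adjusted p = 0.229). Pairs 1, 2 and 3 differed by -0.42, -1.15 and 0.20 log2 units. Without the replicate 3 pair the blocked difference was -0.78 log2 units and passed (limma adjusted p = 0.0244). Without the replicate 2 pair it was -0.11, and without the replicate 1 pair -0.47 (limma adjusted p = 0.796 and 0.299).

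Sox4, an HMG-box transcription factor of progenitors, was lower by its mean in null cells at both probe sets without passing in either fit. Probe set 1433575_AT read 7.20, 7.34 and 7.83 in null arrays 1 to 3 and 8.0, 7.87 and 7.90 in wild-type arrays 1 to 3. The genotypes were apart by only 0.04 log2 units, since null 3 stood close to the wild-type arrays. The difference was -0.47 log2 units (95% confidence interval from -0.87 to -0.07, limma adjusted p = 0.384 unpaired, and from -0.77 to -0.16, limma adjusted p = 0.0648 with the block). Pairs 1, 2 and 3 differed by -0.80, -0.53 and -0.07, and without the replicate 3 pair the blocked difference was -0.67 and passed (limma adjusted p = 0.00771).

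The second Sox4 probe set, 1419155_A_AT, read 6.69, 6.49 and 6.66 in null and 6.81, 6.55 and 7.11 in wild-type arrays. Here the groups overlapped, and the widest pair was that of replicate 3 (-0.46), against -0.13 and -0.06 in pairs 1 and 2. The difference was -0.21 log2 units (limma adjusted p = 0.706 unpaired and 0.246 with the block). The levels of the Sox4 probe sets correlated at only r = 0.45 over the 6 arrays, and their differences were 0.25 log2 units apart. Null 3 was the null array nearest to the wild-type mean in Gata2, in Sox4 1433575_AT, in Kit 1452514_A_AT and in all 3 Myb probe sets.

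**Figure D3:**
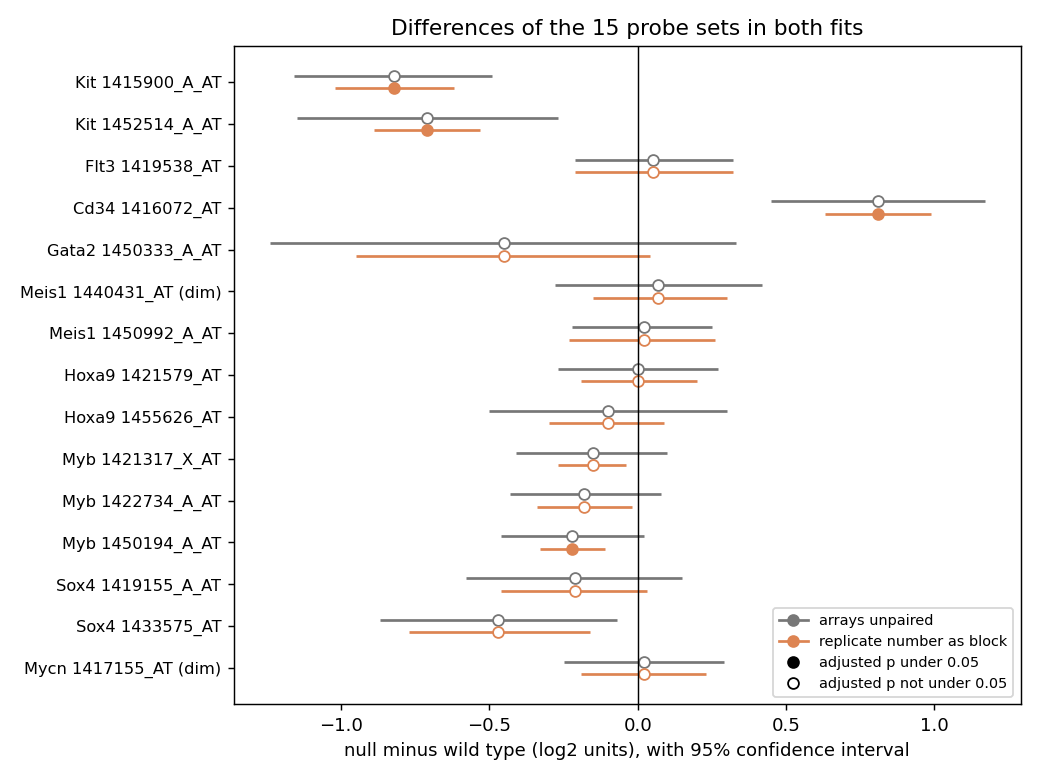
Null minus wild-type difference of each probe set in log2 units with its 95% confidence interval from limma, arrays unpaired in grey and with the replicate number as a block in orange, filled where the adjusted p is under 0.05. The filled points are the blocked values of Kit (-0.82 and -0.71), Cd34 (0.81) and Myb 1450194_A_AT (-0.22), and the probe sets marked dim come from fits without the filter.

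Hoxa9 and Meis1 are homeobox transcription factors that bind DNA together and sustain immature myeloid cells. Hoxa9 1421579_AT read 6.75, 6.56 and 6.54 in null arrays 1 to 3 and 6.76, 6.57 and 6.52 in wild-type arrays 1 to 3. Each null array matched the wild-type array of its number within 0.03 log2 units. The 95% confidence interval of the difference ran from -0.27 to 0.27 unpaired and from -0.19 to 0.20 with the block (limma adjusted p = 0.996 and 0.986). The other Hoxa9 probe set, 1455626_AT, read 9.23, 9.01 and 9.04 in null and 9.57, 8.94 and 9.08 in wild-type arrays. Its difference of -0.10 log2 units (limma adjusted p = 0.897 unpaired and 0.505 with the block) was taken with wild-type 1 as the highest array, and the difference was 0.02 once both replicate 1 arrays were left out. Replicate 1 was the highest array of its genotype at both Hoxa9 probe sets, as it was for Cd34.

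Meis1 1450992_A_AT read 4.63, 4.76 and 4.68 in null arrays 1 to 3 and 4.70, 4.79 and 4.55 in wild-type arrays 1 to 3, a difference of 0.02 log2 units (95% confidence interval from -0.22 to 0.25, limma adjusted p = 0.982 unpaired and 0.953 with the block). Meis1 1440431_AT lay at percentile 22.9 of signal over all probe sets and read 3.08, 3.46 and 3.57 in null and 3.08, 3.26 and 3.55 in wild-type arrays. In fits without the filter it differed by 0.07 log2 units (limma adjusted p = 0.943 unpaired and 0.79 with the block). The levels of the Meis1 probe sets did not move together over the 6 arrays (r = -0.20).

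Mycn, a MYC-family factor that drives growth of immature cells, gave a dim signal. Probe set 1417155_AT lay at percentile 19.3 of signal over all probe sets and read 3.03, 3.23 and 3.37 in null arrays 1 to 3 and 3.00, 3.29 and 3.29 in wild-type arrays 1 to 3. Without the filter Mycn differed by 0.02 log2 units (limma adjusted p = 0.986 unpaired and 0.956 with the block). At this signal a difference in Mycn may not be detectable.

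**Figure D4:**
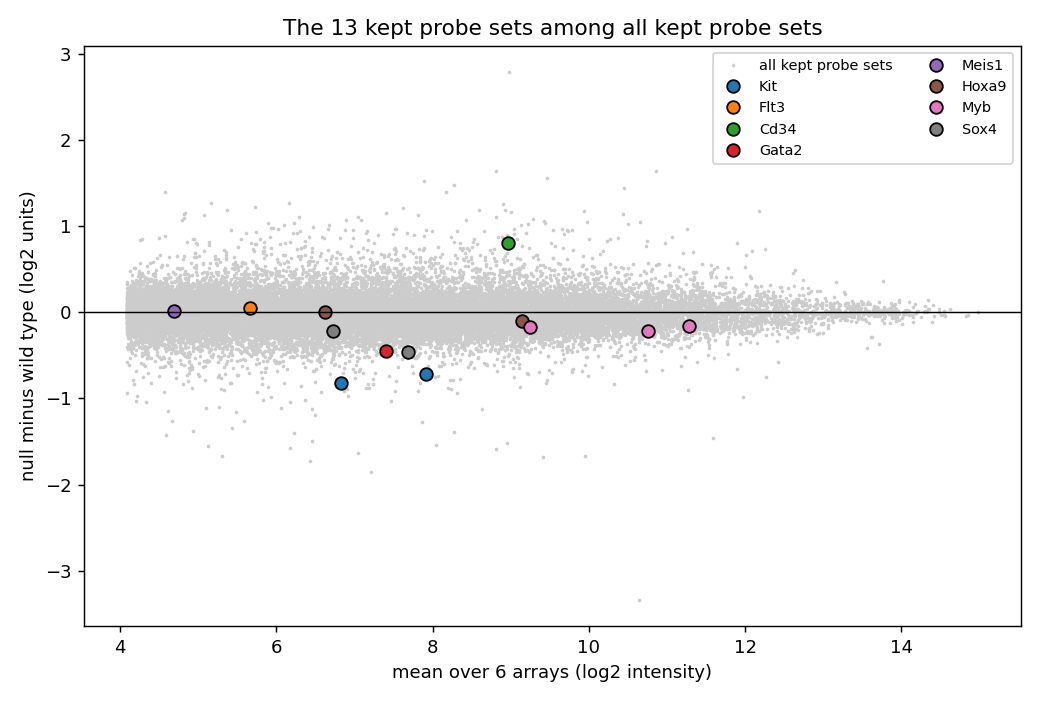
Null minus wild-type difference against mean log2 intensity over the 6 arrays for all 27022 tested probe sets in grey, with the 13 tested probe sets of the 8 genes in colour. Kit lies in the lower tail (-0.82 and -0.71) and Cd34 in the upper tail (0.81) of the cloud. Some tested probe sets lie further out than either, and Flt3, Hoxa9 and Meis1 lie near the centre.

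The size of a difference among all tested probe sets had a median of 0.11 log2 units, and that of the 15 probe sets 0.18. Of tested probe sets, 3.57% differed by more than Sox4 1433575_AT and 3.93% by more than Gata2, against 21.8% for Myb 1450194_A_AT, 53.6% for Hoxa9 1455626_AT and 73.4% for Flt3.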

How the data were processed

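The table the authors deposited holds log2 intensities of 45101 probe sets for 6 arrays. That the scale is log2 was read from the values. The submitters' processing notes name GCOS, while background correction and normalization are not given in the sources used here. Groups and replicate numbers came from the sample titles, and gene names of the 15 probe sets from the rule that chose them. After 64 control probe sets were set aside, 27022 of 45037 with a mean at or above the 40th percentile entered the test in limma 3.58.1 (R 4.3.3; lmFit, eBayes with intensity trend, two-sided, Benjamini-Hochberg adjusted over all 27022). An exact test of 3 against 3 arrays cannot go below p = 0.1 and was not used. Deviations from genotype means correlated at r = 0.70, 0.30 and 0.48 between same-numbered arrays, each over 0.1, the level taken as pairing. Null 3 with wild-type 2 (0.41) and null 2 with wild-type 3 (0.21) also exceeded it, and 0.41 was above the 0.30 of null 2 with wild-type 2. Deviations from a mean of 3 arrays sum to 0, so a shift shared by the replicate 1 arrays alone raises the correlations among the others. This level therefore cannot decide how replicates 2 and 3 pair. The labels do not say what a number stands for. Alternatives were the replicate block, other filters, quantile normalization, median centring, no intensity trend and arrays or pairs left out. The code was tested on simulated data. All 15 probe sets are named, by rule. Members and lists were chosen with earlier results of these data known. Gene lists and cell type markers fixed by symbol were not analysed here, as the table pairs no probe set with a gene. Sequences are from RefSeq tables (GRCm38.p6), in which all 9 genes matched by symbol.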

Additional observations from a re-analysis of the deposited data

How the results depend on the processing

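The median difference over the 15 probe sets stayed between -0.24 and -0.09 log2 units under every alternative run. Unpaired, 0 of the 13 tested probe sets passed under no filter (0 of 15), the stricter filter (0 of 12), quantile normalization, median centring, no intensity trend and each array left out. Over the whole table these fits called 38 to 60 probe sets, apart from leaving out 1 array, which gave 0 to 58 (0 without null 2 or wild-type 2, where limma gave an unadjusted p under 0.05 for 2064 and 1753). The replicate block called 4 members and 2703 probe sets in all. It called 3 and 191 without the intensity trend, 4 and 2455 without a filter, and 4 and 2566 after quantile normalization, an alternative chosen after seeing the data. A block of replicate 1 against the others, also chosen after seeing the data, called 4 and 2417. Leaving out both replicate 1 arrays called 3 and 1072. With 1 pair left out, the block called 3 to 7 members and 606 to 2319 probe sets (3 and 2045 without replicate 1, 3 and 606 without replicate 2, 7 and 2319 without replicate 3). The cause was not tested. Differences near 0 changed sign with arrays or pairs left out, none of those tested passing: Flt3 ran from -0.06 to 0.12, Hoxa9 1421579_AT from -0.06 to 0.08, Hoxa9 1455626_AT from -0.23 to 0.08, Meis1 1450992_A_AT from -0.05 to 0.07 and, untested because dim, Meis1 1440431_AT from -0.03 to 0.22 and Mycn from -0.08 to 0.11. Without the replicate 3 pair, Hoxa9 1421579_AT was -0.01 and Meis1 1450992_A_AT -0.04. With both replicate 1 arrays left out, Hoxa9 1455626_AT was 0.02. Kit, Cd34, Gata2, Myb and Sox4 kept their sign throughout these settings. Calls other than those of Kit, Cd34 and Myb 1450194_A_AT were not changed by the replicate block. With 3 arrays a genotype, precision is limited by their number.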
